A study of Mus musculus with 3 samples.

Results

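Peaks of the circadian transcription factors CLK and BMAL1 assigned to zinc finger and Krüppel-like factor genes were examined in mouse liver chromatin. The members are all rows of the deposited peak table whose gene symbol begins with Zfp, Zbtb or Klf followed by a number, or is Sp followed by a number from 1 to 9. The rule used only the gene symbol, and 32 of the 2127 peaks met it, at 26 genes. A single liver extract served for both ChIP libraries and for the Input library, which was made without antibody. It came from male adult C57BL/6 mice, 3 to 6 months old under a cycle of 12 h light and 12 h dark, taken at ZT8 (8 h after the lights came on). One library was made with an anti-CLK antibody and 1 with an anti-BMAL1 antibody. There is 1 library per group, so no value has a replicate, no difference was tested, and all intervals cover counting error only. The CLK library held 37371047 mapped tags with 759 peaks, the BMAL1 library 28920754 tags with 1578 peaks, and the Input 18846303 tags.

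CLK and BMAL1 form a dimer that binds the e-box, the palindromic hexamer CACGTG, and drives the transcription of clock genes and of clock-controlled genes, many of which encode transcription factors themselves. Krüppel-like factors (KLF) and SP factors carry C2H2 zinc fingers, in which pairs of cysteines and histidines hold a zinc ion, and bind GC boxes and CACCC elements in promoters. ZBTB proteins join such fingers to a BTB domain that recruits corepressors. The Zfp symbols cover many further C2H2 proteins, often DNA-binding repressors, and also Zfp36 and Zfp36l1, whose CCCH fingers bind AU-rich elements in mRNAs and promote mRNA decay.

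The sequences below show where the e-box lay in the member peaks that held one within 100 bp of the MACS summit, the position of highest tag density. They are from the + strand of mm9, written 5′ to 3′, with CACGTG in capitals and 30 bases on either side. The Klf13 site shared by CLK and BMAL1 held no exact e-box, so the window around its CLK summit is given, with hexamers that differ from CACGTG by 1 mismatch in capitals. The Zfp407 sites are described without sequence.
Klf15, CLK:BMAL1, chr6:90413726-90413791: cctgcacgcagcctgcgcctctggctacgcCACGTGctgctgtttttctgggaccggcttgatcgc
Klf13, CLK:BMAL1, chr7:71062768-71062833: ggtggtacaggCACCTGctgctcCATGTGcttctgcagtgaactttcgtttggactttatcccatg
Klf9, BMAL1 only, chr19:23215363-23215428: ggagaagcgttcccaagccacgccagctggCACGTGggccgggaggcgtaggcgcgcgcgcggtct
Klf11, BMAL1 only, chr12:25335992-25336057: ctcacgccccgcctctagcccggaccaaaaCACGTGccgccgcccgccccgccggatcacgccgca
Zfp36, BMAL1 only, chr7:29168265-29168330: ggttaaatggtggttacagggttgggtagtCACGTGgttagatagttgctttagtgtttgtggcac
Zfp169, BMAL1 only, chr13:48642132-48642197: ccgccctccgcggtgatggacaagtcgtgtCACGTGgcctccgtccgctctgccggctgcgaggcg
Zfp281, BMAL1 only, chr1:138520851-138520916: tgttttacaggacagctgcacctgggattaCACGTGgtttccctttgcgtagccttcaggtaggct
Zfp710, BMAL1 only, chr7:87130217-87130282: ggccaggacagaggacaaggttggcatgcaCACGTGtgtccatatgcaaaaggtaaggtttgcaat

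The peak table puts each peak in 1 of 3 classes, according to whether it was called in both ChIP libraries (CLK:BMAL1) or in one (BMAL1 only, CLK only). Of the 32 member peaks, 3 were CLK:BMAL1 (9.38%, exact 95% interval 1.98 to 25), against 9.92% of all peaks. These were the peaks at Klf15, Klf13 and Zfp407. BMAL1 only peaks numbered 22 (68.8%, against 64.3% of all peaks) and CLK only peaks 7 (21.9%, against 25.8%). The class make-up of the members was therefore near that of the whole table. The KLF genes held 2 of the 3 CLK:BMAL1 peaks from 5 peaks in all, the Zfp genes other than the Zfp36 genes 1 from 21, and the Zbtb genes and the Zfp36 genes none from 3 each.

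Peak strength was read from MACS, which gives the tags in a peak, a score (10 times the negative log10 of the p-value, with a cutoff of 50) and the fold enrichment over the local Input. The 25 member peaks of the BMAL1 list had a median score of 60.05 (range 50.87 to 161.78), where the whole list had 59.45. Their median fold enrichment was 6.73 (range 3.33 to 12.66), against 6.795 for the list. In the CLK list the 10 members had a median score of 62.95 (range 50.99 to 134.71), against 59.18, and a median fold of 6.49 (range 5.34 to 9.52), against 6.35. Scores under 60, close to the calling cutoff, were given to 12 of 25 BMAL1 members (812 of 1578 in the list) and 3 of 10 CLK members (399 of 759).

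A score of at least 100 was reached by 1 of 10 members in the CLK list (12.4% of all CLK peaks) and by 6 of 25 in the BMAL1 list (14.8% of all BMAL1 peaks). The CLK peak was that of Klf15. The BMAL1 peaks were those of Zfp407 (161.78), Zfp692-ps (153.76), Klf15 (147.74), Zfp169 (135.14), Zfp771 (125.52) and Klf13 (125.15). The 3 shared sites were all among these 6. The other 3 were BMAL1 only, as were 103 of the 233 BMAL1 peaks with such a score. MACS also gives an FDR in percent, obtained by exchanging ChIP and Input, and it was at most 5% for 12 of 25 BMAL1 members (47.7% of all BMAL1 peaks) and 2 of 10 CLK members (21.3% of all CLK peaks). The 2 CLK peaks were the shared peaks of Klf13 and Zfp407, while the stronger CLK peak of Klf15 had an FDR of 6.25%.

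**Figure D1:**
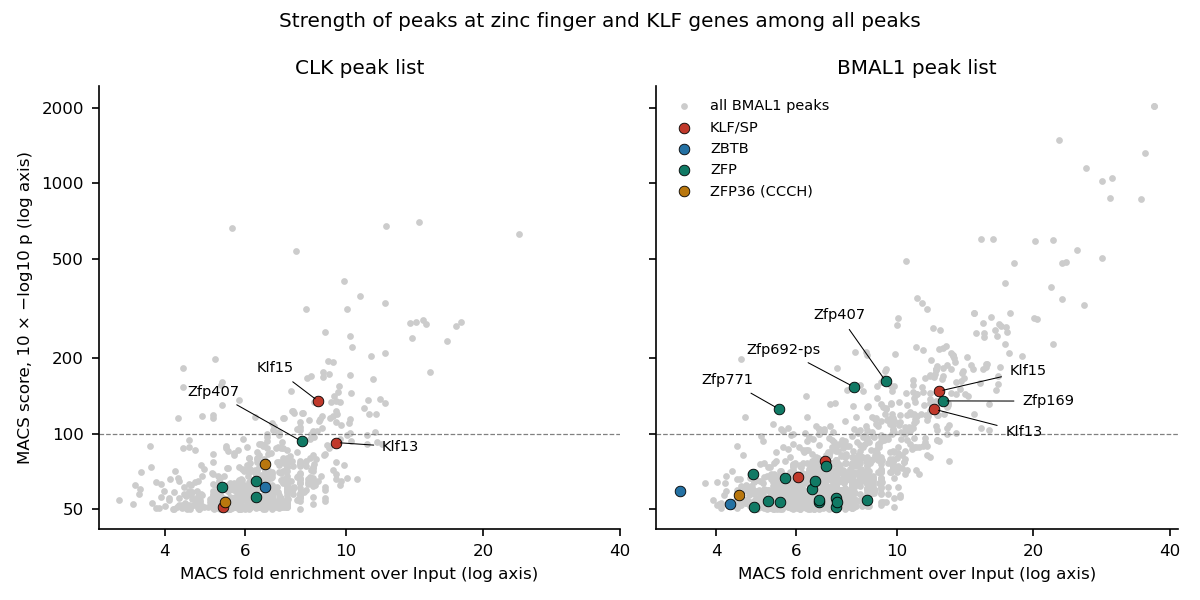
MACS score against fold enrichment over Input (both axes logarithmic) for every peak of the CLK list (left) and the BMAL1 list (right), in grey, with the member peaks coloured by gene family and a dashed line at a score of 100. In the BMAL1 list 6 of 25 members lie above the line, Klf15, Klf13 and Zfp169 at folds of 12.12 to 12.66 and Zfp771 at a fold of 5.50, and in the CLK list only Klf15 lies above it.

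Klf15, a regulator of gluconeogenesis and amino acid breakdown in liver, had the strongest member peak of the CLK list. The peak lay on chromosome 6 from 90413149 to 90414046, inside an intron, 979 bp downstream of the listed start site. It held 77 CLK tags (exact Poisson 95% interval 60.8 to 96.2) with a score of 134.71 and a fold of 8.70, and 58 BMAL1 tags (44.0 to 75) with a score of 147.74 and a fold of 12.39. The site ranked 48 of 759 CLK peaks and 114 of 1578 BMAL1 peaks by score. The CLK and BMAL1 summits were 41 bp apart, and the centre of the e-box shown above lay 3 bp before the CLK summit, counted along the + strand.

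Klf13, a regulator of the chemokine RANTES in T lymphocytes, had 2 peaks in introns of the gene on chromosome 7. The shared peak (71062516 to 71063061) lay 20955 bp inside the gene from the listed start, though 6955 bp from the nearest start of Klf13 in the GENCODE M1 annotation. It held 46 CLK tags (33.7 to 61.4) at a score of 92.11 and 47 BMAL1 tags (34.5 to 62.5) at a score of 125.15. Its CLK fold of 9.52 was the highest of the members in that list, and its BMAL1 fold was 12.12. The summits were 38 bp apart. As printed above, hexamers with 1 mismatch lay near the CLK summit, and no exact e-box lay within 100 bp of it. A hexamer with at most 1 mismatch lay within 100 bp of the summit in 98.1% of all CLK:BMAL1 peaks. The other peak (71041668 to 71042457) was CLK only, with 53 tags (39.7 to 69.3) but a score of 50.99 and a fold of 5.37, the lowest score of the CLK members. It thus held more tags than the shared peak at a lower score and a lower fold over the local Input. The nearest BMAL1 peak was 20862 bp away, and neither an e-box nor a hexamer with 1 mismatch lay within 100 bp of the summit.

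Klf9, which responds to glucocorticoid and thyroid hormone, and Klf11, which is induced by TGF-β, each had a BMAL1 only peak just upstream of the start site. The Klf9 peak (chromosome 19, 23215126 to 23215731) was centred 287 bp before the start and held 40 BMAL1 tags (28.6 to 54.5), with a score of 77.50 and a fold of 6.96. Its e-box lay 7 bp after the summit. The Klf11 peak (chromosome 12, 25335685 to 25336342) was centred 125 bp before the start, the shortest distance of the 32, and held 35 BMAL1 tags (24.4 to 48.7), with a score of 66.93 and a fold of 6.08. Its e-box lay 80 bp before the summit, the farthest of the 8 member peaks with an e-box. The tag intervals of the Klf9 and Klf11 peaks overlap, and a difference between their counts was not tested.

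The CLK list had no peak at the Klf9 start, but the peak of highest score within 10000 bp of any KLF start, in both lists, lay close by. A CLK:BMAL1 peak on chromosome 19 from 23209938 to 23210601, assigned in the table to the transcript AK019124, had its summit between genes, 5456 bp from the Klf9 start of GENCODE M1. It held 89 CLK tags with a score of 173.44 (fold 9.16, rank 30 of 759) and 99 BMAL1 tags with a score of 208.73 (fold 9.94, rank 57 of 1578). These scores exceeded those of every member peak in the same lists. Klf16, a KLF gene with no peak of its own symbol, likewise had a BMAL1 only peak with its summit 764 bp from its start (chromosome 10, 80040538 to 80041156), assigned to AK133627, with 40 tags, a score of 85.68 and a fold of 6.23. Both sites held e-boxes, of which the Klf16 window shows 2, and neither counts among the 32 members. Their sequences are given in the same form as above.
Klf9 upstream site, CLK:BMAL1, chr19:23210222-23210287: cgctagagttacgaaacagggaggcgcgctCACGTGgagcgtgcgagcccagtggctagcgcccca
Klf16 start, BMAL1 only, chr10:80040722-80040835: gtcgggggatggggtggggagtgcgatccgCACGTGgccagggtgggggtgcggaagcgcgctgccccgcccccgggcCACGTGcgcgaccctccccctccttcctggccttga

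Across the family, 4 of the 17 coding KLF genes of GENCODE M1 had a peak of their own symbol (Klf9, Klf11, Klf13 and Klf15) and none of the 9 SP genes did. Of all coding genes of the annotation, 6.7% had one. The percentage was 5.81 for the 430 coding genes that meet the symbol rule, with 25 of them, and 4.9 for the 367 Zfp genes, with 18. For the Zbtb genes it was 8.11, with 3 of 37. For KLF genes other than these 4 and Klf16, the nearest peak of any class was 76953 bp or more from the start, as at Klf1, and for Klf10, the closest relative of Klf11, it was 131149 bp away. For the SP genes it was 262002 bp or more. With 4 and 0 genes these shares are coarse, and no test was made of them.

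Of 87 other C2H2 zinc finger genes outside the symbol rule, 9 had a peak (10.3%): Bcl11b, Glis1, Glis3, Ikzf2, Prdm1, Trps1, Zeb1, Zfpm2 and Zic4. The highest score at 8 of these genes ran from 50.74 to 70.09. Zeb1, a repressor of E-cadherin, was the one with a CLK:BMAL1 peak, with scores of 60.74 for CLK and 101.69 for BMAL1. The nearest peak of Zeb1 was 214880 bp from its start, and that of Zic4 8885 bp. For the genes other than Zic4 this distance ran from 58004 bp (Prdm1) to 256554 bp (Trps1). The 87 genes include developmental and chromatin regulators such as the Gli and Egr genes, which had no peak, and the Ikzf genes, of which only Ikzf2 had one.

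The 3 Zbtb genes each had 1 peak, all inside the gene and each called in only 1 of the lists. Zbtb20, a repressor of alpha-fetoprotein in the liver after birth, had a BMAL1 only peak over a coding exon on chromosome 16 (43609423 to 43610362). The peak was 362497 bp from the listed start, the greatest distance of the members, and 11289 bp from the nearest Zbtb20 start of GENCODE M1. It held 47 tags (34.5 to 62.5), as many as the shared Klf13 peak, yet its fold of 3.33 was the lowest of all 1578 BMAL1 peaks and its score was 58.77. Zbtb34 had a BMAL1 only peak in its 3′ UTR on chromosome 2 (33266076 to 33266722) with 31 tags (21.1 to 44.0), a score of 52.19 and a fold of 4.29. Zbtb38, which binds methylated DNA, had a CLK only peak on chromosome 9 (96632367 to 96632795) with 24 tags (15.4 to 35.7), a score of 61.34 and a fold of 6.63, in an intron 20523 bp from the listed start and 462 bp from a GENCODE M1 start. None of the 3 had an e-box within 100 bp of the summit.

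Zfp36 encodes tristetraprolin, an mRNA-binding protein that limits the output of inflammatory transcripts, and it had a peak from each list at separate positions. The CLK only peak (chromosome 7, 29163762 to 29164363) lay in an intron 185 bp after the start, with 51 CLK tags (38 to 67.1), a score of 75.55 and a fold of 6.65. The BMAL1 only peak (29167836 to 29168665) lay 4004 bp before the start, with 45 BMAL1 tags (32.8 to 60.2), a score of 57.06 and a fold of 4.50. The summits were 4153 bp apart. The e-box stood at the BMAL1 site, 25 bp before its summit on the + strand, and the CLK site had no e-box and no hexamer with 1 mismatch. Zfp36l1, of the same CCCH family, had a CLK only peak on chromosome 12 (81164606 to 81164948), 49223 bp from its start beyond the end of the gene, with 21 tags, a score of 53.08 and a fold of 5.42.

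**Figure D2:**
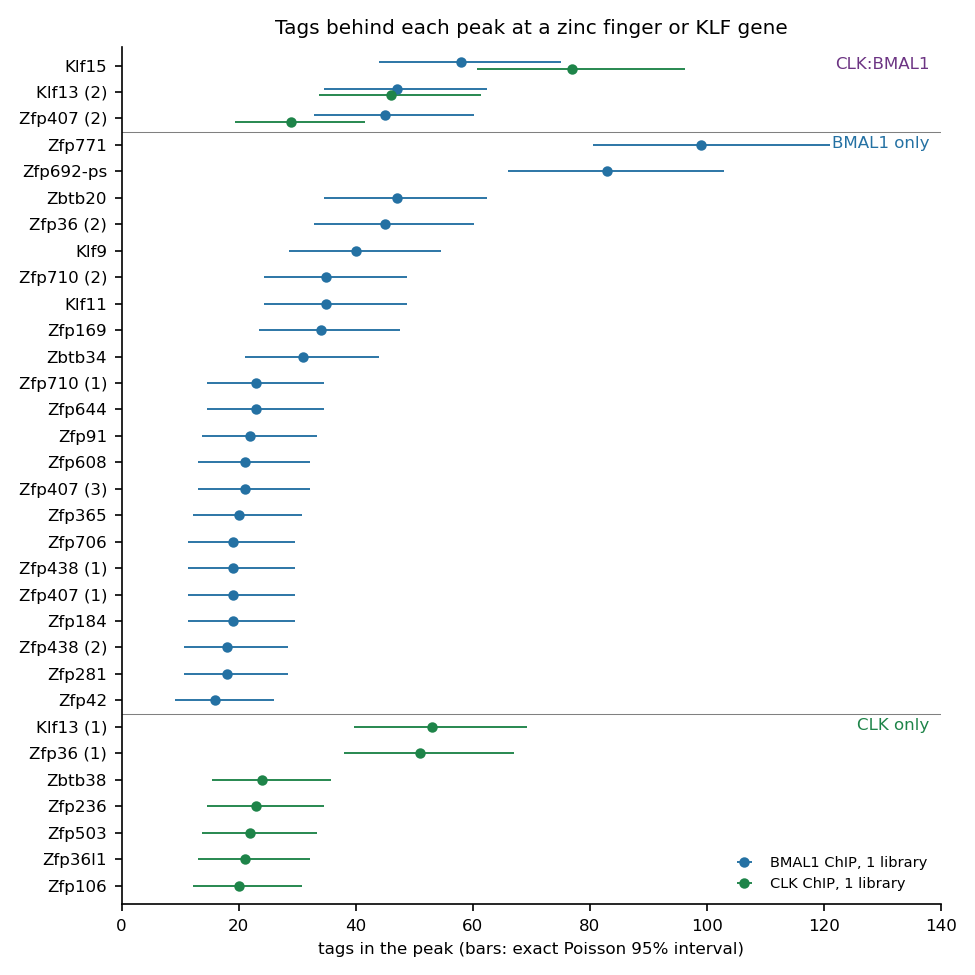
Tags in each member peak (horizontal axis, number of tags; bars are exact Poisson 95% intervals), grouped by class, with the BMAL1 library in blue and the CLK library in green; genes with several peaks are numbered along the chromosome. BMAL1 tag counts run from 16 at Zfp42 to 99 at Zfp771 and CLK counts from 20 at Zfp106 to 77 at Klf15, not scaled to the depth of the library.

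Among the C2H2 Zfp genes, Zfp407 was the one with 3 peaks, all in introns on chromosome 18. The CLK:BMAL1 peak (84545865 to 84546269), 35745 bp from the start, held 29 CLK tags (19.4 to 41.6) with a score of 93.09 and a fold of 8.0, and 45 BMAL1 tags (32.8 to 60.2) with a score of 161.78 and a fold of 9.47. This was the highest BMAL1 score of the members, at rank 99 of 1578, and its FDR was 0.00%. Scaled to 1000000 unique tags of each library, Zfp407 had 0.877 CLK tags (0.588 to 1.26) and 1.78 BMAL1 tags (1.3 to 2.39), counted over called peaks of 405 and 713 bp. The shared Klf13 peak had 1.39 CLK tags (1.02 to 1.86) and 1.86 BMAL1 tags (1.37 to 2.48) on this scale. The Klf15 peak had 2.33 (1.84 to 2.91) and 2.3 (1.75 to 2.97). The 2 counts at Zfp407 come from called peaks of unlike length, and a difference between them was not tested. How often CLK and BMAL1 tags lie as far apart over all shared peaks was not counted. The summits were 82 bp apart, the widest of the 3 shared sites, and the nearest e-box was 112 bp from the CLK summit, just outside the window of 100 bp, with 4 hexamers of 1 mismatch inside it. The other 2 peaks were BMAL1 only and near the cutoff. One (84478267 to 84478671) held 19 tags at a score of 51.12 with an e-box 30 bp before the summit, and the other (84549935 to 84550422) held 21 tags at a score of 53.16, 4127 bp from the CLK peak. Chromosome 18 held 7 of the 32 member peaks, at Zfp236, Zfp407, Zfp438 and Zfp608, and 85 of all 2127 peaks.

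Of the remaining strong BMAL1 peaks, that of Zfp169 had the highest fold of the members, 12.66, with 34 tags (23.5 to 47.5) and a score of 135.14. It lay on chromosome 13 (48641934 to 48642398), between genes and 33370 bp before the listed start, about as far as from the nearest coding start, that of A830005F24Rik (33247 bp). It held 2 e-boxes within 100 bp of the summit, at 21 bp before and 44 bp after it. Zfp692-ps, a pseudogene by its symbol, had a peak on chromosome 11 (58115571 to 58116433) with 83 tags (66.1 to 103), a score of 153.76 and a fold of 8.05, between genes. It lay 4986 bp from the listed start and 4502 bp from the start of the coding gene Zfp692, and held no e-box within 100 bp. Zfp771 had the member peak with most tags, 99 (80.5 to 121), and the longest, at 1115 bp, on chromosome 7 (134397373 to 134398487) over a coding exon. Its score was 125.52, but its fold was 5.50, below the list median, and it held no e-box. The 6 strong BMAL1 members were therefore of unlike kinds, and 2 of them (Klf15 and Zfp169) held an e-box within 100 bp of the summit. The share with an e-box among all BMAL1 peaks of such a score was not computed.

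Zfp710 and Zfp438 each had 2 BMAL1 only peaks. Those of Zfp710, on chromosome 7, lay 39374 bp before the start (87130093 to 87130557, 23 tags, score 64.91, fold 6.60, e-box 24 bp before the summit) and 20549 bp inside the gene (87189915 to 87190581, 35 tags, score 68.97, fold 4.82, no e-box). Those of Zfp438, on chromosome 18, lay 15329 bp (19 tags, score 60.05, fold 6.51) and 97527 bp (18 tags, score 53.32, fold 5.53) before the start. None of these 4 reached a score of 100. The tag intervals of the Zfp438 peaks, 11.4 to 29.7 and 10.7 to 28.4, nearly coincide.

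Of the member peaks within 1000 bp of a start site, 2 were at C2H2 Zfp genes. Zfp281, a factor of pluripotent cells, had a BMAL1 only peak 665 bp before its start on chromosome 1 (138520644 to 138521068), with 18 tags (10.7 to 28.4), a score of 50.87, the lowest of the BMAL1 members, and a fold of 7.37. In spite of this low score it held an e-box 2 bp from the summit, preceded after a gap of 6 bases by a hexamer with 1 mismatch, the tandem arrangement known from clock genes. It was the one tandem e-box among the members (1 of 32, against 2.54% of all peaks). Zfp106, an RNA-binding protein, had a CLK only peak 142 bp before its start on chromosome 2 (120389531 to 120389887), with 20 tags (12.2 to 30.9), a score of 55.73 and a fold of 6.35, and no e-box.

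The other BMAL1 only peaks at Zfp genes were those of Zfp91, Zfp184, Zfp365, Zfp42, Zfp608, Zfp644 and Zfp706. Their scores ran from 53.49 (Zfp42, also known as Rex1, a marker of pluripotent cells) to 74.03 (Zfp644), their folds from 5.22 (Zfp706) to 8.60 (Zfp184) and their tags from 16 to 23. Zfp644, a partner of a histone methyltransferase complex, had its peak on chromosome 5 (107223025 to 107223428), between genes and 97378 bp before the start, with 23 tags (14.6 to 34.5), a fold of 6.99 and no exact e-box but 4 hexamers with 1 mismatch. Zfp91, a ubiquitin ligase of the NF-κB pathway, had its peak in an intron 1251 bp from the start (chromosome 19, 12869143 to 12869580), with a score of 66.23 and an e-box 128 bp from the summit. The other CLK only peaks were those of Zfp236 (score 61.34, 107218 bp before the listed start and 35652 bp from a GENCODE M1 start) and Zfp503, a gene of forebrain development (score 64.55, 10202 bp before the start). Each of these 9 peaks held 16 to 23 tags, so that the exact Poisson intervals span from 9.15 to 34.5.

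The place of a peak was measured from its centre to the start site of the assigned gene as the table lists it. Of the 32, 6 (18.8%, 7.21 to 36.4) lay within 1000 bp of the start, against 16.5% of all peaks. They were the peaks of Klf9, Klf11, Klf15, Zfp36, Zfp106 and Zfp281. The KLF genes held 3 of these 6 from 5 peaks. From the summit to the nearest GENCODE M1 start of the same gene, Klf15 was at 1192 bp and Zbtb38 at 462 bp. By that measure Klf15, with an e-box, leaves the 6 and Zbtb38, without one, enters. Distances had a median of 20536 bp (24938 bp over all peaks), and 7 members (21.9%, 9.28 to 40) lay beyond 50000 bp, against 35.5% of all peaks. Of these, Zbtb20 and Zfp236 were nearer than that to a start of the same gene in GENCODE M1. Zfp608, not among them by the listed start, was 75546 bp from its nearest GENCODE M1 start. Inside the assigned gene lay 14 (43.8%, 26.4 to 62.3), against 42.3%, before its start 15, and past its end 3, at Zfp184, Zfp706 and Zfp36l1.

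In GENCODE M1 the member summits fell 16 times between genes, 11 times in an intron, 2 times in a coding exon, 2 times in a 3′ UTR (Zbtb34 and Zfp365) and once in an exon of the non-coding transcript Gm17718, at Zfp281. The assigned gene had the nearest coding start of that annotation in 25 of 32 cases. Among the exceptions, the Zfp184 peak lay 6098 bp from the start of Pom121l2 and the Zfp771 peak 6543 bp from that of Dctpp1. The peak of Zfp608, listed 15980 bp before the start, fell in an intron of Zfp608 in GENCODE M1. The assignment to a gene is by position alone, and whether a site acts on that gene was not measured here.

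**Figure D3:**
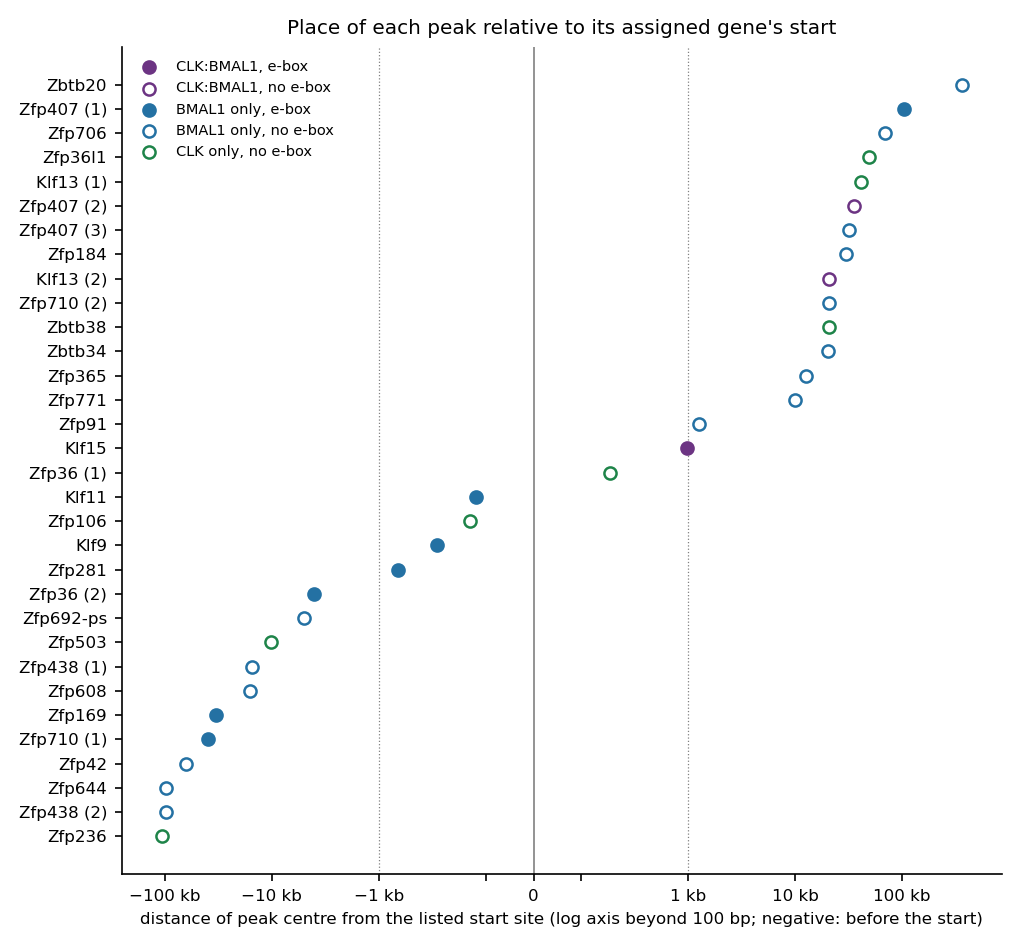
Distance from the listed start site of the assigned gene to the peak centre (horizontal axis, logarithmic beyond 100 bp; negative values lie before the start, positive ones inside the gene or past its end), with colour for the class and filled points for an e-box within 100 bp of the summit. The 6 peaks between the dotted lines at 1000 bp include 4 filled points (Klf9, Klf11, Klf15 and Zfp281), and the 26 outside them include 4.

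The e-box was found within 100 bp of the summit in 8 of 32 member peaks (25%, 11.5 to 43.4), against 22.7% of all peaks. It was in 0 of 32 in the flanks from 400 to 500 bp (upper bound 10.9%), against 2.87% of all peaks. By class it was in 1 of 3 CLK:BMAL1 members, against 59.2% of all such peaks. It was in 7 of 22 BMAL1 only members (31.8%, 13.9 to 54.9, against 22% of all such peaks). Of the CLK only members 0 of 7 held it (upper bound 41.0%, against 10.4%). By place it was in 4 of the 6 members within 1000 bp of a start (all peaks: 50.3%) and in 4 of the 26 others (15.4%; all peaks: 17.2%). With 1 mismatch allowed, 24 of 32 (75%) held a hexamer, against 71.0% of all peaks. The intervals of the members contained the share of all peaks in each of these counts. With 3, 6 or 7 peaks in a group they are wide, so this does not show that the shares agree. Members of the BMAL1 list with an e-box had a median BMAL1 score of 65.92 (n = 8, range 50.87 to 147.74), those without 58.77 (n = 17, range 52.19 to 161.78), and the ranges overlapped over nearly their whole length. Over all CLK:BMAL1 and BMAL1 only peaks these medians were 76.35 (n = 426) and 57.18 (n = 1153). A BMAL1 peak that overlaps several CLK peaks counts there once for each of them.

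The GC box GGGCGG, searched on both strands as the hexamer that KLF and SP factors can bind, was within 100 bp of the summit in 10 of 32 members (31.2%, 16.1 to 50), against 14.6% of all peaks. It was in 1 of 32 in the flanks (3.12%, against 8.51%). All 5 peaks at KLF genes held it (lower bound 47.8%), including both intronic Klf13 sites, but only that of Klf9 held it within 50 bp, where the share was 15.6% for the members and 8.79% for all peaks. The other 5 members with a GC box within 100 bp were those of Zfp106, Zfp169, Zfp438 (the farther one), Zfp706 and Zfp771. GC-rich sequence moved with this count, and its part in it was not tested. Members had a median GC content of 54.7% within 100 bp of the summit (51.7% for all peaks), and those of Klf11 (74.1%), Zfp706 (74.6%) and Zfp771 (70.1%) were the richest. Nearness to a start moved with it as well, since 4 of 6 members within 1000 bp of a start had a GC box (55.7% of all such peaks) and 6 of 26 of the others (23.1%, 8.97 to 43.6, against 6.42%). An e-box and a GC box stood together in the windows of Klf9, Klf11, Klf15 and Zfp169. A match of these letters is a description of the sequence and does not show that a KLF or SP factor bound there.

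**Figure D4:**
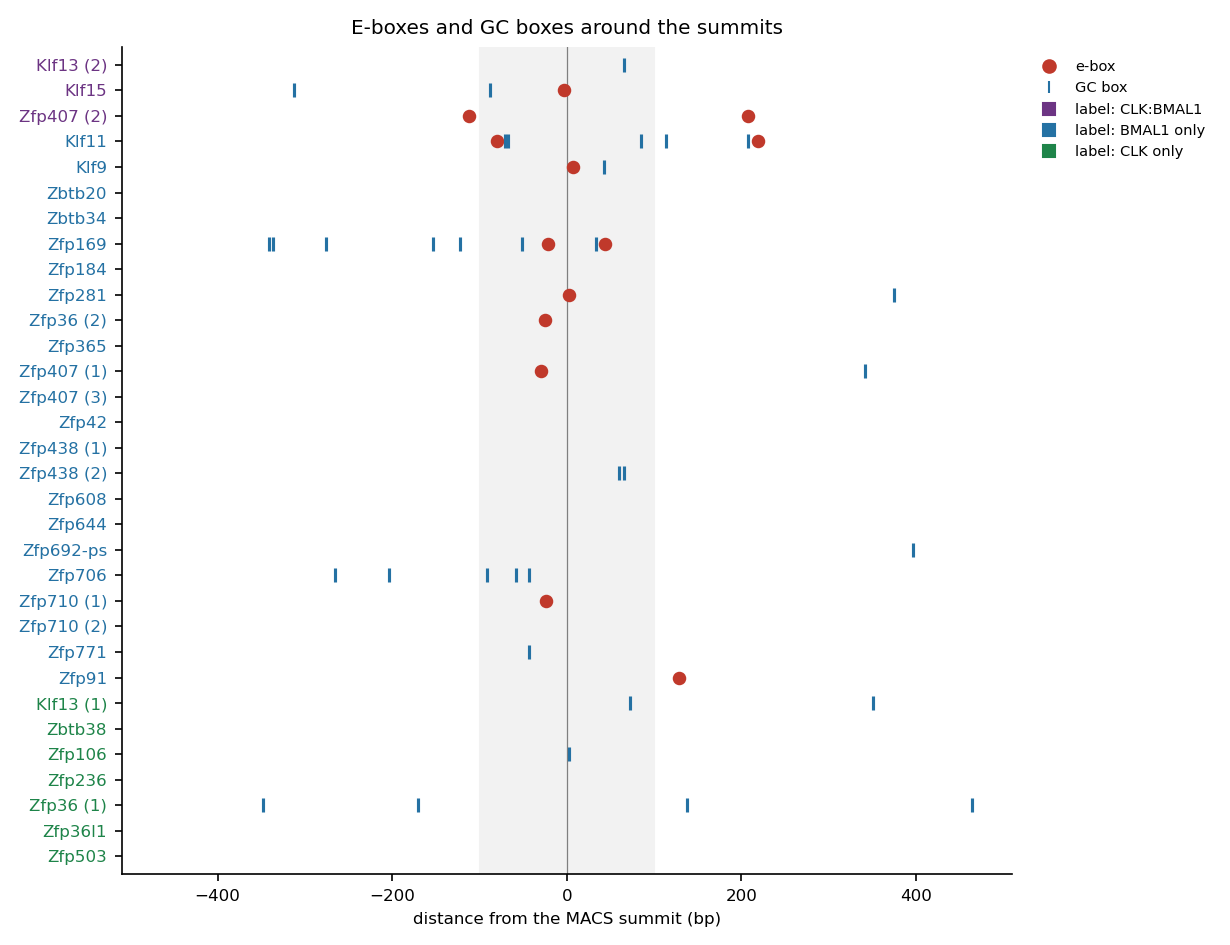
Positions of the e-box CACGTG (red points) and of the GC box (blue bars) relative to the MACS summit of each member peak (horizontal axis, bp along the + strand; the grey band is 100 bp on either side; label colours give the class). An e-box lies within 100 bp of the summit in 8 peaks, the nearest one is at -112 bp in the shared Zfp407 peak and at 128 bp in Zfp91, and no CLK only peak has one in the range shown.

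The assignment of peaks to 1 gene each left out sites close to other zinc finger genes. With a summit within 10000 bp of a GENCODE M1 start of a gene that meets the symbol rule, 9 peaks had been assigned to a different symbol, and for 7 of the 9 genes concerned no peak carried the gene's own symbol. Besides Klf9 and Klf16, described above, the closest were a BMAL1 only peak 57 bp from the Zfp292 start (chromosome 4, 34830008 to 34830588; 44 tags, score 157.91, fold 16.7), listed with no symbol, and one 840 bp from the Zfp526 start (chromosome 7, 26005355 to 26005965; 49 tags, score 132.56, fold 9.74), assigned to Dedd2. Both held an e-box. The fold of the Zfp292 site exceeded that of every member. Weaker peaks lay near Zbtb12 (3675 bp, assigned to Ehmt2, score 75.29) and near Zfp259 (4514 bp, assigned to Apoa5, CLK only, score 59.02). The remaining ones were near Zfp36 (6235 bp, assigned to Clg, score 55.91), Zfp385b (8698 bp, assigned to AK078367, score 64.33) and Zfp692 (assigned to Zfp692-ps, above).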

How the data were processed

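The CLK, BMAL1 and Input libraries took 15 cycles of PCR and gave reads of 36 nt. Per the labels, the submitters' notes name CASAVA 1.6, Bowtie and the build mm9, and the study kept reads with a unique position. The authors ran MACS on either ChIP library with the single Input as control, with a p-value cutoff of 1e-05 per the file headers. The deposited lists give the count of tags in a peak, a score (10 times the negative log10 of the p-value), a fold enrichment (the ratio to the local Input background) and an FDR in percent. The deposited table gives class, assigned gene and distance to the start in bp. A peak inside a gene was assigned to that gene, and any other to the nearest start. Headers gave 37371047 (CLK), 28920754 (BMAL1) and 18846303 (Input) tags, of which 33057959, 25217144 and 18206506 remained after removal of duplicates.

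All 2127 rows were joined to the lists by position. A CLK:BMAL1 row carries the position of the CLK peak, whose summit and score were used as the peak's own. Motifs were read from NCBIM37 (mm9) on both strands, and features and starts from GENCODE M1. A tandem e-box was CACGTG with a hexamer of at most 1 mismatch at a gap of 6 or 7 bases. Shares have exact 95% Clopper-Pearson intervals and tags exact Poisson intervals. Both reflect counting error alone, because each group is 1 library. The Poisson intervals also take each tag as a separate molecule, which reads copied by PCR are not. Scripts ran in Python 3.11.15 with scipy 1.17.1 and pysam 0.24.0 and were tested on simulated data. With 1 library per group no test was made.

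Peaks named with values were the CLK:BMAL1, Klf, Sp and Zbtb peaks, the 10 of highest score, those of genes with 2 or more peaks, those within 1000 bp of a start and the 2 of lowest score in each list. Others were given by range, with single values chosen after they were seen. The members and gene lists were chosen with earlier results of these data known.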

Additional observations from a re-analysis of the deposited data

How the results depend on the processing

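8 results were recomputed under 31 alternatives, 5 of them chosen after seeing the data, and 24 moved by less than the 95% interval of the value reported. The share of CLK:BMAL1 peaks among the members moved to 40% (2 of 5) for Klf and Sp genes and to 0.0% (0 of 3) for Zbtb genes. It moved to 50% (3 of 6) with a score of at least 100 in either list, an alternative added after seeing the data. The share of all peaks under that limit was not computed. An own score of at least 100 was reached by 32.2% of all CLK:BMAL1 peaks, 7.53% of all BMAL1 only and 4.74% of all CLK only peaks. Such scores were thus more frequent among shared peaks of the whole table as well. The share with CACGTG moved to 75% with 1 mismatch allowed and to 50% (2 of 4) with an own score of at least 100. For all peaks with such an own score it was not computed. The median BMAL1 fold moved to 10.79 with a score of at least 100 (n = 6), and the share with a GC box to 15.6% within 50 bp. The subsets of peaks hold 3 to 6, and the 1 mismatch setting is a looser motif by construction. Without chromosome 18, also added after seeing the data, the CLK:BMAL1 share was 8.0%, the share within 1000 bp 24.0% and the share with an e-box 28.0%. No paired analysis was possible because each group is 1 library and no result comes from a test. With 16 to 99 tags in a peak and 15 of 32 scores between the cutoff of 50 and 60, absence from a list does not show absence of binding.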
